A study of Mus musculus with 11 samples.

Results

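The genes described here encode 10 enzymes of fatty acid beta-oxidation: Cpt1a, Cpt2, Acadm, Acadl, Acadvl, Hadha, Hadhb, Acaa2, Acaa1a and Etfdh. They were chosen by name, and all 22 array probes annotated to them were read, of 45281 probes and 19057 named genes on the array. Expression was measured in mammary tumours of PyMT/SIRT6 mice (n = 5) and PyMT mice (n = 6), with 1 Illumina Mouse WG-6 v2.0 array per tumour. All animals were female and 12 weeks old. Both groups carried the PyMT transgene, which encodes the polyoma virus middle T oncogene, and the PyMT/SIRT6 mice also carried a Sirt6BAC allele that overexpresses SIRT6, a chromatin deacylase. The labels name neither the promoter of the PyMT transgene nor the cells that express the added Sirt6, and nothing in them ties tumours to animals, so p-values here cover only the spread among the 11 tumours.

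Beta-oxidation shortens fatty acids in the mitochondrial matrix. Acyl groups enter through the carnitine shuttle, pass through rounds of dehydrogenation, hydration, a further dehydrogenation and thiolytic cleavage, and yield acetyl-CoA, while the electrons of the first step reach the respiratory chain through the electron transfer flavoprotein. The pathway is active in muscle and brown fat, and the mammary gland lies in a fat pad near muscle, so an excised tumour can hold both. Of the 10 genes, Acaa1a is not mitochondrial by its known role: it encodes the thiolase of peroxisomes, and a close paralog, Acaa1b, means that its probe may read both transcripts.

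As a check of the labels, all 3 Sirt6 probes separated the genotypes completely. The brightest of them gave intensities of 291 to 399 in PyMT/SIRT6 tumours, against 199 to 236 in PyMT tumours. Muscle RNA was uneven. Ckm, the muscle creatine kinase, was high in 3 PyMT/SIRT6 tumours, at 1082, 1899 and 5197 in replicates 1, 4 and 5, and in PyMT replicate 5, at 5350.0, against at most 253 on the other 7 arrays, and it varied 36.9-fold in all. The 15 skeletal muscle markers summed to 2961 to 115704 in PyMT/SIRT6 tumours and to 2842 to 115188 in PyMT tumours. Adipoq, the adipocyte hormone adiponectin, varied 7.31-fold without such a gap, with intensities of 197 to 912 in PyMT/SIRT6 tumours and 184 to 1345 in PyMT tumours. The 6 tested adipocyte markers summed to 1088 to 6186 in PyMT/SIRT6 tumours and to 1018 to 5196 in PyMT tumours, while Fabp4, Plin1 and Retn, 3 other adipocyte markers, were too dim to be tested. Between the genotypes 0 markers passed the adjusted threshold, with positive changes for all 15 muscle markers (median 1.17 on the log2 scale), 7 of 7 macrophage markers (median 0.17) and 5 of 5 lymphocyte markers (median 0.12), 3 of them at an unadjusted p under 0.05, as were 2.04% of all features, and for 3 of 6 adipocyte and 1 of 3 brown adipocyte markers. The part of these cells in the values below was not tested, except where Ckm and Adipoq are given beside them. The 7 tested epithelial markers summed to 13602 to 21262 in PyMT/SIRT6 tumours and to 11935 to 25069 in PyMT tumours.

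Promoter sequences were matched for 9 of the 10 genes in the RefSeq table for GRCm38.p6, as windows from 250 bases before a listed transcript start to 50 bases after it. For Cpt1a and Acaa1a that start lies downstream of the first base of the annotated gene, and for the other 7 genes it is the first base. The stretches before the start are printed for 4 genes that recur below: Acadm, which followed Adipoq most closely, Acadl and Etfdh, the pair of genes that varied most alike, and Hadhb, which shares its start region with Hadha. Each is on the strand of its gene, 5′ to 3′, and capitals mark AGGTCA, the core of nuclear receptor sites, and GGGCGG, the GC box bound by Sp1-type factors, on either strand.
Acadm (chr3:153944644-153944893, minus strand): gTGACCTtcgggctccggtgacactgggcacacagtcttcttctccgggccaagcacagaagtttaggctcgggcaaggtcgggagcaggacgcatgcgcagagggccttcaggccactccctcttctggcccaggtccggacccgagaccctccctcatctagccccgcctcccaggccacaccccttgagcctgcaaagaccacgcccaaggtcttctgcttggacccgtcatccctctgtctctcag
Acadl (chr1:66863310-66863559, minus strand): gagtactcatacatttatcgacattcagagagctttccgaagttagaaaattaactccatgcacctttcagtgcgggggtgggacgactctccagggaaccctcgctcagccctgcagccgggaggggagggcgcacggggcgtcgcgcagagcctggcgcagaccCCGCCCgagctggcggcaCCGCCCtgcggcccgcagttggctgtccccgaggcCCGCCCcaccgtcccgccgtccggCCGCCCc
Etfdh (chr3:79628768-79629017, minus strand): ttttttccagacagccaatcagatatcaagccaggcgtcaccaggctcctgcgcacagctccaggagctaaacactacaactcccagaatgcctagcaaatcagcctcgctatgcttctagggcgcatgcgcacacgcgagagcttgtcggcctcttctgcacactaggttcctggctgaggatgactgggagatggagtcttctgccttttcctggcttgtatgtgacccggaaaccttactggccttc
Hadhb (chr5:30155003-30155252, plus strand): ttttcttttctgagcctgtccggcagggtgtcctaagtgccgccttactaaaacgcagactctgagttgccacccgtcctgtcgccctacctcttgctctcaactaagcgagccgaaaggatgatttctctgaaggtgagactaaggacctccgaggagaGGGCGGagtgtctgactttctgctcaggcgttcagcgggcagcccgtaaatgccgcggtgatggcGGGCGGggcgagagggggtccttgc

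Acadm held AGGTCA at the far end of its stretch and no GC box, whereas Acadl and Hadhb held GC boxes, and the single GC box of Etfdh lay after the start, outside the printed bases. Over the full windows AGGTCA occurred in 3 of the 9 genes (Cpt1a, Acadm and Acadvl), against 16.3% of all 32851 listed promoters, or 18.1% of genes. GGGCGG occurred in 7 of the 9, against 35.7% of promoters, or 38.2% of genes. Neither DR1, the direct repeat of AGGTCA with 1 base between the copies that PPAR and RXR bind, nor TNAAGGTCA, the longer site of estrogen-related receptors, occurred in any of the 9, and both are rare, in 0.0396% and 1.28% of all promoters. These searches read both strands, and AGGTCA is contained in the 2 longer motifs. Hadha and Hadhb, which encode the subunits of a single protein, lie head to head with 272 bases between their starts, so that their windows share 228 bases. The only GC box of Hadha lies in that shared stretch, is also a box of Hadhb, and is counted for both genes. A match describes letters only.

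None of the 9 testable genes differed between the genotypes beyond the spread between tumours. Expression was compared with limma on log2 intensity over all 14726 features, of which 0.0136% passed an adjusted p of 0.05, and 0 of the 9 did so. At an unadjusted p under 0.05 there were also 0 members, where 2.04% of all features were higher and 2.39% were lower. The groups overlapped for every member, while 0.292% of features stood wholly higher and 0.197% wholly lower in PyMT/SIRT6 tumours. Of the changes, 7 were negative and 2 positive, with a median of -0.09 on the log2 scale, beside a median of -0.005 for all features, of which 46.9% were positive. The 95% intervals of the 9 ran from 0.69-fold, the lower end for Acaa1a, to 1.33-fold, the upper end for Acaa2, on intensities without visible background subtraction. After normexp background correction they ran from -0.61 on the log2 scale, for Acadl, to 0.58, for Hadha. In bulk tumours fewer cells of a type and less RNA per cell cannot be told apart.

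The carnitine shuttle was represented by Cpt1a and Cpt2. Cpt1a encodes the outer membrane transferase that is inhibited by malonyl-CoA and sets the rate of entry. Both of its probes read 141 to 166 over the 11 arrays, with means below the median of all probes, so it was left out by the filter and these arrays give little information on it. Without a filter its brighter probe changed by -0.02 ± 0.03 (SE) on the log2 scale. Cpt2, the inner membrane transferase that regenerates acyl-CoA, read 756, 777, 706, 666 and 721 in PyMT/SIRT6 replicates 1 to 5, against 806, 825, 675, 856, 863 and 624 in PyMT replicates 1 to 6. The PyMT/SIRT6 values all lay inside the range of the PyMT values, whose lowest and highest tumours were replicates 6 and 5. The change was -0.09 ± 0.11 (limma, adjusted p = 0.983).

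The acyl-CoA dehydrogenases carry out the first step on chains of different length. Acadvl, for very long chains, read 777, 931, 923, 901 and 994 in PyMT/SIRT6 tumours, against 819 to 1214 with a median of 1017 in PyMT tumours. PyMT/SIRT6 replicate 1 was the lowest array and PyMT replicate 5 the highest, and the change was -0.14 ± 0.12 (limma, adjusted p = 0.983). Acadl, for long chains, read 269.9, 296, 421, 334 and 348 in PyMT/SIRT6 tumours, against 460.0, 369, 392, 349.9, 273 and 327 in PyMT tumours. Its lowest arrays were 1 of each genotype, PyMT/SIRT6 replicate 1 and PyMT replicate 5, and the change was -0.11 ± 0.14 (limma, adjusted p = 0.983). Acadm, the medium-chain enzyme whose loss is a common inherited defect of the pathway in humans, read 2769.9, 3061, 4029.9, 4162 and 3446 in PyMT/SIRT6 tumours. In PyMT tumours it read 3321, 3856, 3201, 4365, 5215 and 3957. Only PyMT replicate 5 and replicate 4 exceeded every PyMT/SIRT6 tumour, and the change was -0.19 ± 0.15 (limma, adjusted p = 0.983).

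The trifunctional protein carries out the remaining steps on long chains, with hydratase and dehydrogenase activity in the alpha subunit, encoded by Hadha, and thiolase activity in the beta subunit, encoded by Hadhb. The only Hadha probe, which the annotation ties to a cDNA clone and not to a RefSeq transcript, was dim, at 189, 157, 157, 198 and 169.5 in PyMT/SIRT6 tumours, against 148 to 191 with a median of 169 in PyMT tumours. These readings straddled the filter limit of 158.6, and the change was 0.03 ± 0.08 (limma, adjusted p = 0.985). Hadhb read 396, 511, 636, 403 and 611 in PyMT/SIRT6 tumours, against 630.3, 592, 438, 652, 507 and 433 in PyMT tumours. Each genotype held both high and low tumours, and the change was -0.09 ± 0.16 (limma, adjusted p = 0.983).

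The thiolases cleave the shortened chain. Acaa2, which releases acetyl-CoA from medium chains in mitochondria, read 878, 856, 1341, 823 and 961 in PyMT/SIRT6 tumours, against 1256, 1237, 819, 975, 736 and 746 in PyMT tumours. PyMT/SIRT6 replicate 3 and PyMT replicates 1 and 2 stood above the other tumours, and the change was 0.03 ± 0.18 (limma, adjusted p = 0.992), with the widest interval of the 9 genes, -0.36 to 0.41. Acaa1a, the peroxisomal thiolase, read 3413, 4820.1, 4344, 3392 and 3274 in PyMT/SIRT6 tumours. In PyMT tumours it read 4183, 6229.7, 4176, 4288, 4423 and 3789.8. Its change of -0.23 ± 0.15 was the largest of the 9 genes and had the lowest unadjusted p, 0.138 (limma, adjusted p = 0.983). That rank did not hold in every setting. Without PyMT replicate 2 Acaa1a changed by -0.13 (limma, unadjusted p = 0.310) and Acadm by -0.19 (unadjusted p = 0.252). Without PyMT/SIRT6 replicate 4 Acaa1a changed by -0.19 (limma, unadjusted p = 0.256) and Acadm by -0.26 (unadjusted p = 0.127). With log2 Ckm as a covariate Acadm changed by -0.25, against -0.17 for Acaa1a. The 3 lowest readings came from PyMT/SIRT6 replicates 1, 4 and 5, which were also the PyMT/SIRT6 tumours with high Ckm, and without the 4 tumours with high Ckm, which leaves 2 PyMT/SIRT6 and 5 PyMT tumours, the change was 0.04. With log2 Ckm as a covariate over all 11 tumours it was -0.17, and with Ckm and Adipoq also -0.17. The other tumour with high Ckm, PyMT replicate 5, read 4423 and did not share the low level. Whether muscle content had a part in the Acaa1a change was not tested.

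Etfdh passes the electrons collected by the acyl-CoA dehydrogenases from the electron transfer flavoprotein to ubiquinone. It read 385, 402, 462, 405 and 428 in PyMT/SIRT6 tumours, against 459.9, 459.7, 441, 476, 376 and 403 in PyMT tumours. It had the narrowest spread of the tested genes, 1.27-fold from lowest to highest, and the change was -0.07 ± 0.09 (limma, adjusted p = 0.983). By array, PyMT/SIRT6 replicate 1 gave the lowest reading for 4 of the 10 genes, and PyMT replicate 5 gave the highest for 4 and the lowest for 2.

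**Figure D1:**
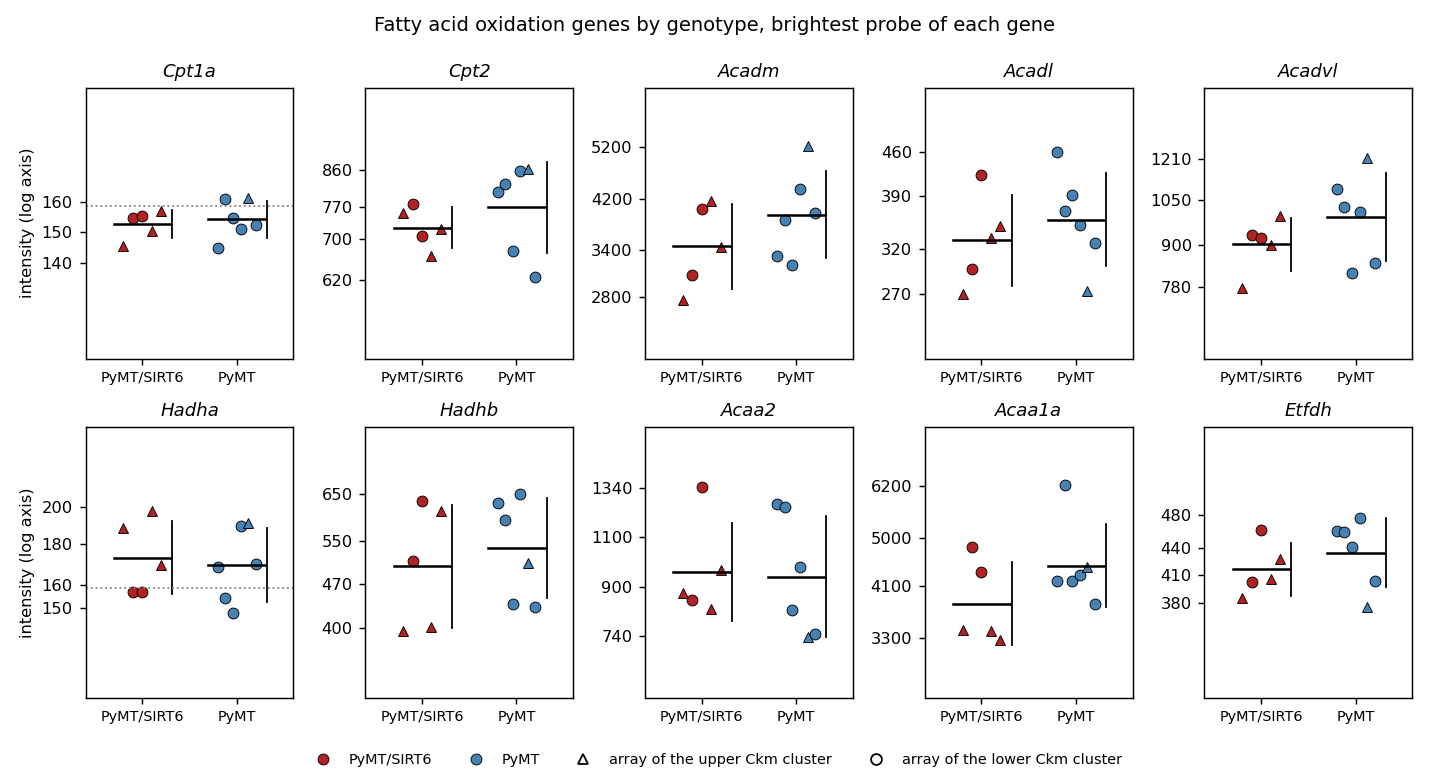
Intensity (log axis) of the brightest probe of each of the 10 genes, with 1 point per tumour, PyMT/SIRT6 (n = 5) left of PyMT (n = 6). Horizontal lines are geometric means, vertical lines 1 SD on the log2 scale, triangles the 4 tumours with high Ckm and dotted lines the filter limit of 158.6; the groups overlap for every gene, and the 3 triangles of the PyMT/SIRT6 group are the lowest points for Acaa1a.

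With every probe tested separately and no filter, 0.00663% of all probes passed an adjusted p of 0.05, and 0 of the 22 member probes did. Unadjusted p-values under 0.05 were found for 0 of the 22, where 2.2% of all probes were higher and 2.7% lower, and the lowest unadjusted p was 0.125. Of the 22 changes, 17 were negative and 5 positive, with a median of -0.04. All 3 Cpt2 probes, both Acadvl probes and the 3 Acadl probes had negative changes, while the 4 Acaa2 probes and the 4 Etfdh probes were split around 0, so the sign for these 2 genes depended on the probe read. The second brightest Etfdh probe changed by 0.10 ± 0.06, against -0.07 ± 0.09 for the brightest. Of the 5 probes below the median of the array, 2 belonged to Cpt1a, 2 to Etfdh and 1 to Acadl.

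**Figure D2:**
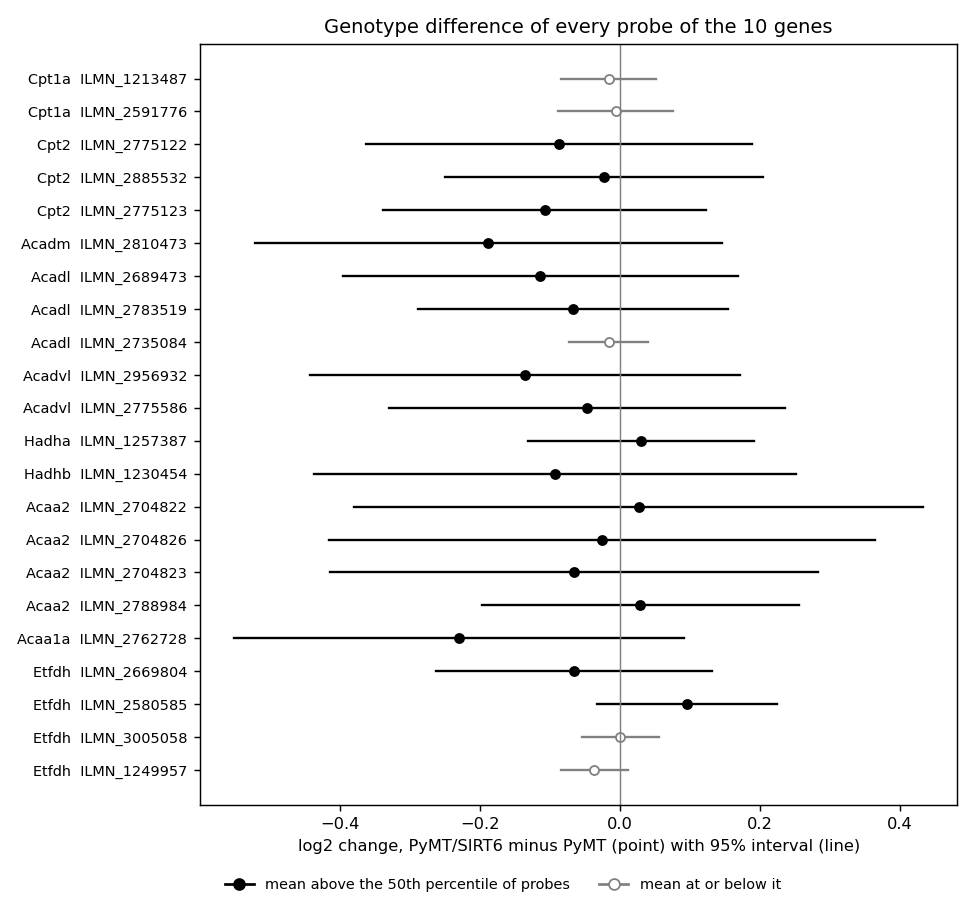
Change of each of the 22 probes (x axis, log2, PyMT/SIRT6 minus PyMT) with its 95% interval, grouped by gene down the page. Filled points are the 17 probes above the 50th percentile of the array and open points the 5 at or below it; all 22 intervals cross 0.

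Many bright probes of the same gene gave like profiles over the 11 tumours. The 3 brightest Acaa2 probes correlated at r = 0.93 to 0.98, but the fourth, also well above the median of the array, correlated with them at r = 0.58 to 0.59 (adjusted permutation p = 0.102). The 2 Acadvl probes correlated at r = 0.82. The 2 bright Acadl probes correlated at r = 0.70 (rho = 0.68, permutation p = 0.0173, adjusted over the 20 probe pairs 0.0495), and the 3 Cpt2 probes at r = 0.66 to 0.85. By contrast the second brightest Etfdh probe ran against the brightest, with r = -0.65 (rho = -0.59, permutation p = 0.0302, adjusted p = 0.0672). Of 20 probe pairs within a gene 7 passed an adjusted permutation p of 0.05. A probe below the median of the array was part of 8 of the 20, and 0 of those 8 passed. The profile of Etfdh described here is therefore that of 1 probe, as are those of Acadm, Hadha, Hadhb and Acaa1a, which had a single probe each.

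Among themselves the members varied together in part. Of the 45 pairs of genes, 33 had a positive r over the 11 tumours, with a median of 0.23, beside 0.005 for all pairs of tested genes. Of the 45, 8 had r above 0.6, as did 6.3% of all gene pairs, and 0 had r below -0.6, as did 5.82% of all gene pairs, and 1 pair passed an adjusted permutation p of 0.05. That pair was Acadl and Etfdh, with r = 0.85 (permutation p = 0.00107, adjusted over the 45 pairs 0.0481) and rho = 0.88 (permutation p = 0.00073, adjusted 0.0328). The 6 tumours with the lowest Acadl readings were also the 6 with the lowest Etfdh readings. Without the 2 tumours farthest from the median r was 0.83, and within the 7 tumours with low Ckm it was 0.69 (exact permutation p = 0.0899). Across all gene pairs 0.457% had r at least as high as this pair. When the mean of all probes was taken for each gene, 0 pairs passed.

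Acadl, Etfdh, Hadhb and Acaa2 made up most of the other close pairs. Acaa2 and Etfdh had r = 0.77 (rho = 0.75, permutation p = 0.00683, adjusted p = 0.115), Hadhb and Acaa2 r = 0.73, Hadhb and Etfdh r = 0.73, and Acadl and Acaa2 r = 0.73. Cpt2 and Acadvl, the transferase and the dehydrogenase of the longest chains, had r = 0.71 (rho = 0.78, permutation p = 0.0149, adjusted p = 0.115). Acadm and Acadvl had r = 0.62, which was 0.04 without the 2 tumours farthest from the median. Hadha stood apart, with negative r in 6 of its 9 pairs. With Hadhb, the other subunit of the trifunctional protein, it had r = -0.26 (rho = -0.28, permutation p = 0.437, adjusted p = 0.756) over the 11 tumours and 0.41 over the 7 with low Ckm, on the dim probe described above. Within those 7 tumours 0 pairs passed the adjusted threshold, and the median r was 0.36.

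**Figure D3:**
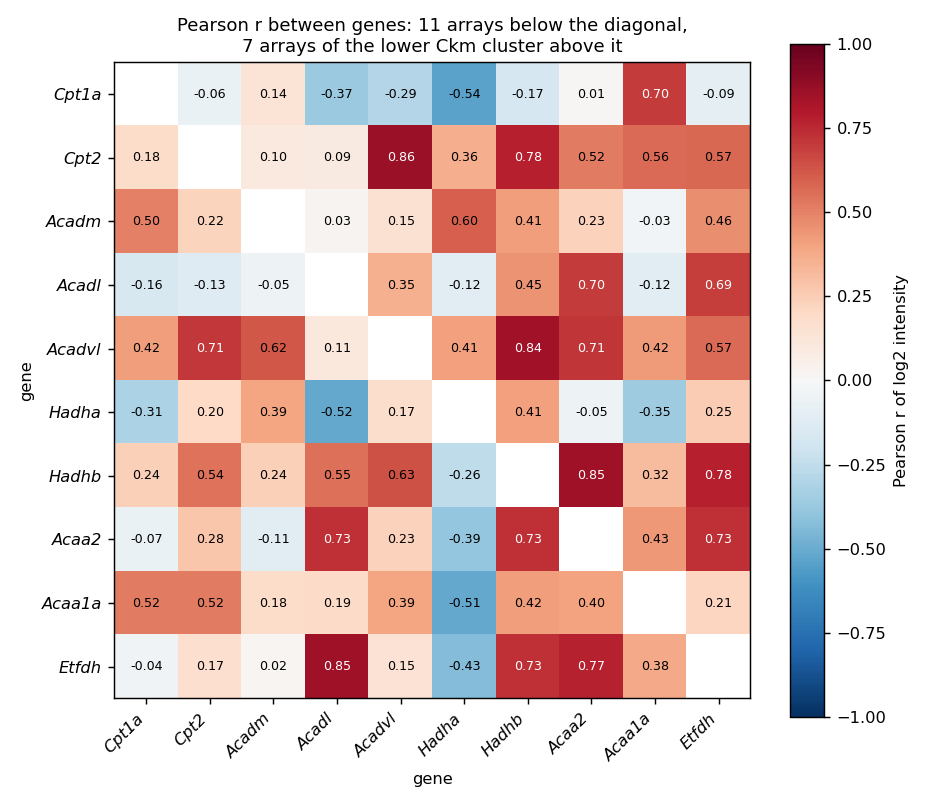
Pearson r of log2 intensity for each pair of the 10 genes, over all 11 tumours below the diagonal and over the 7 tumours with low Ckm above it (colour scale from -1 to 1). Acadl with Etfdh (0.85) is the highest value below the diagonal, and most Hadha values there are negative.

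The relation to fat content was read against Adipoq, and Acadm followed it most closely. The 3 tumours with the least Adipoq were PyMT/SIRT6 replicate 2 and PyMT replicates 1 and 3, with Adipoq at 197, 184 and 296 and Acadm at 3061, 3321 and 3201. The 2 tumours with the most, PyMT replicates 4 and 5, had Adipoq at 1345 and 1089 and Acadm at 4365 and 5215. PyMT replicate 5 also had the highest Ckm, 5350. Other tumours departed from this order. PyMT/SIRT6 replicate 5, next in Adipoq at 912, had Acadm at only 3446. The lowest Acadm, 2769.9 in PyMT/SIRT6 replicate 1, came with Adipoq at 438. Over the 11 tumours r was 0.70 (permutation p = 0.0164) and rho was 0.82 (permutation p = 0.00314), and r was 0.69 without the 2 tumours farthest from the Adipoq median. Adjusted over the 20 relations of the members to the 2 markers, these p-values were 0.328 and 0.0628, and adjusted over all 14725 features they were 0.391 and 0.223, so the relation did not pass the threshold, which 0.0272% of all features passed for r. Within the 6 PyMT tumours r was 0.88 (unadjusted exact permutation p = 0.025), and within the 7 tumours with low Ckm it was 0.93 (unadjusted exact permutation p = 0.00317).

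The other members showed weaker relations to Adipoq. Hadha had r = 0.58 (rho = 0.60, permutation p = 0.0665, adjusted p = 0.665). Acadl had r = -0.30 over all tumours (rho = -0.21, permutation p = 0.376, adjusted p = 0.888), and r = -0.80 in the 6 PyMT tumours (exact permutation p = 0.0597). The remaining 7 had r from -0.22 to 0.36. Of the 10 members, 1 had r above 0.6, where 4.99% of all features did, and 0 had r below -0.6, where 5.67% did. The median r of the members was 0.17, beside -0.03 for all features. Of the 20 relations 1 had an unadjusted p under 0.05 for r, and 0 passed after adjustment.

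**Figure D4:**
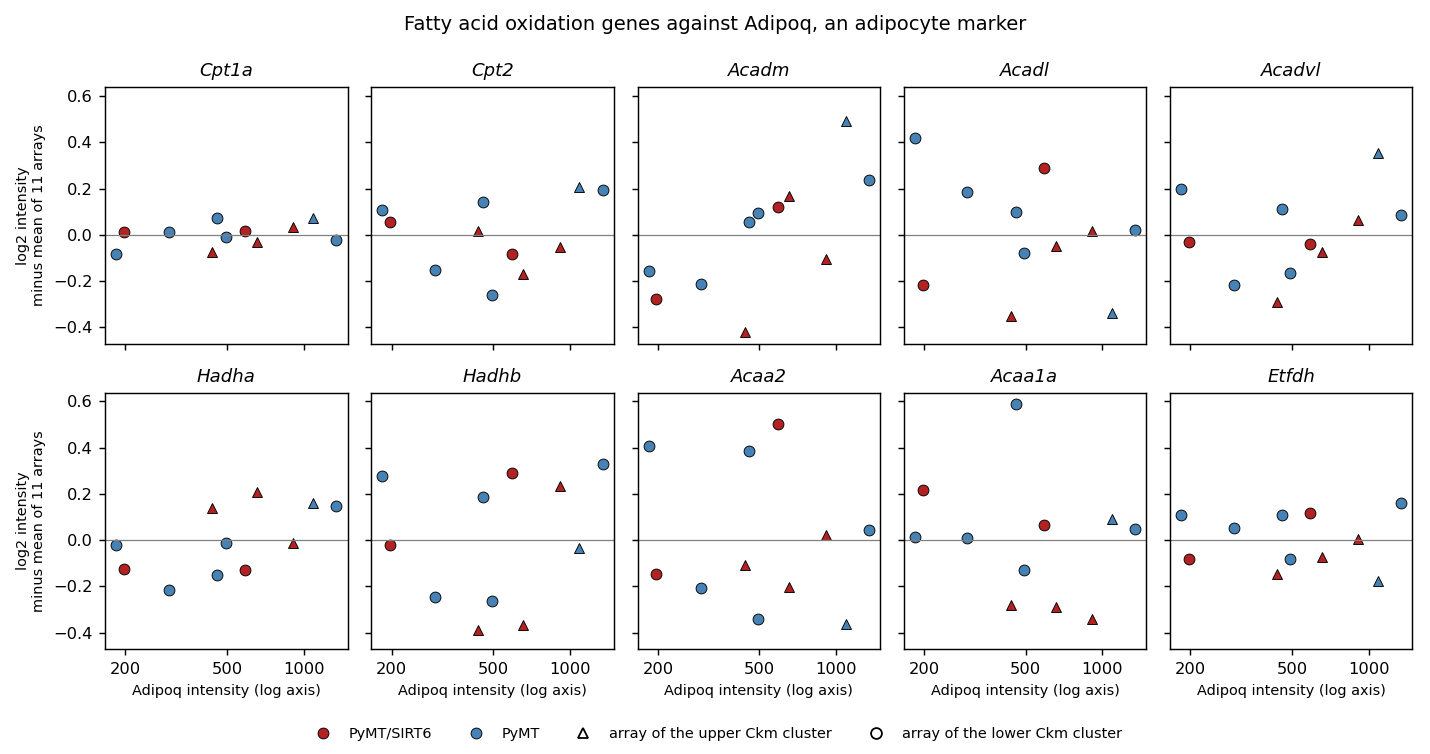
Log2 intensity of each of the 10 genes, centred on its mean over 11 tumours (y axis), against Adipoq intensity (x axis, log scale), with PyMT/SIRT6 in red, PyMT in blue and triangles for the 4 tumours with high Ckm. Acadm rises with Adipoq (rho = 0.82), while the other panels show weaker relations, with r from -0.30 for Acadl to 0.58 for Hadha.

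The relation to muscle content was read against Ckm. Because Ckm split the tumours into 4 high and 7 low ones, no correlation over all 11 is given. For 0 of the 10 members did the 4 tumours with high Ckm lie all above the other 7, and for 0 all below, where 1.08% and 1.09% of all features did so. Of the 14 skeletal muscle markers other than Ckm, 13, all but Mb, had the 4 tumours above the other 7. Within the 7 tumours with low Ckm, r of the members with Ckm ran from -0.30 to 0.53 with a median of -0.08, and 0 members passed 0.75 in either direction, where 1.16% and 0.835% of features did. Ckm read only 145 to 253 in these 7 tumours, with 5 of them at most at 164, close to the array median of 157.5, so these correlations say little about muscle content. Ckm and Adipoq themselves had r = 0.20 in these 7 tumours (rho = 0.11, exact permutation p = 0.659).

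Without the 4 tumours with high Ckm, 2 PyMT/SIRT6 and 5 PyMT tumours remained and 0 of all features passed the threshold, Sirt6 included, so that setting gives no test of the members. In it the changes of Hadha, Hadhb and Acaa1a had the opposite sign. With log2 Ckm as a covariate in limma 0 members passed, where only 2 of all 14726 features did. With log2 Adipoq 0 members and 3 of all features passed, and with both 0 members and 1 of all features. So few features passed that these counts say little about the members.

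**Figure D5:**
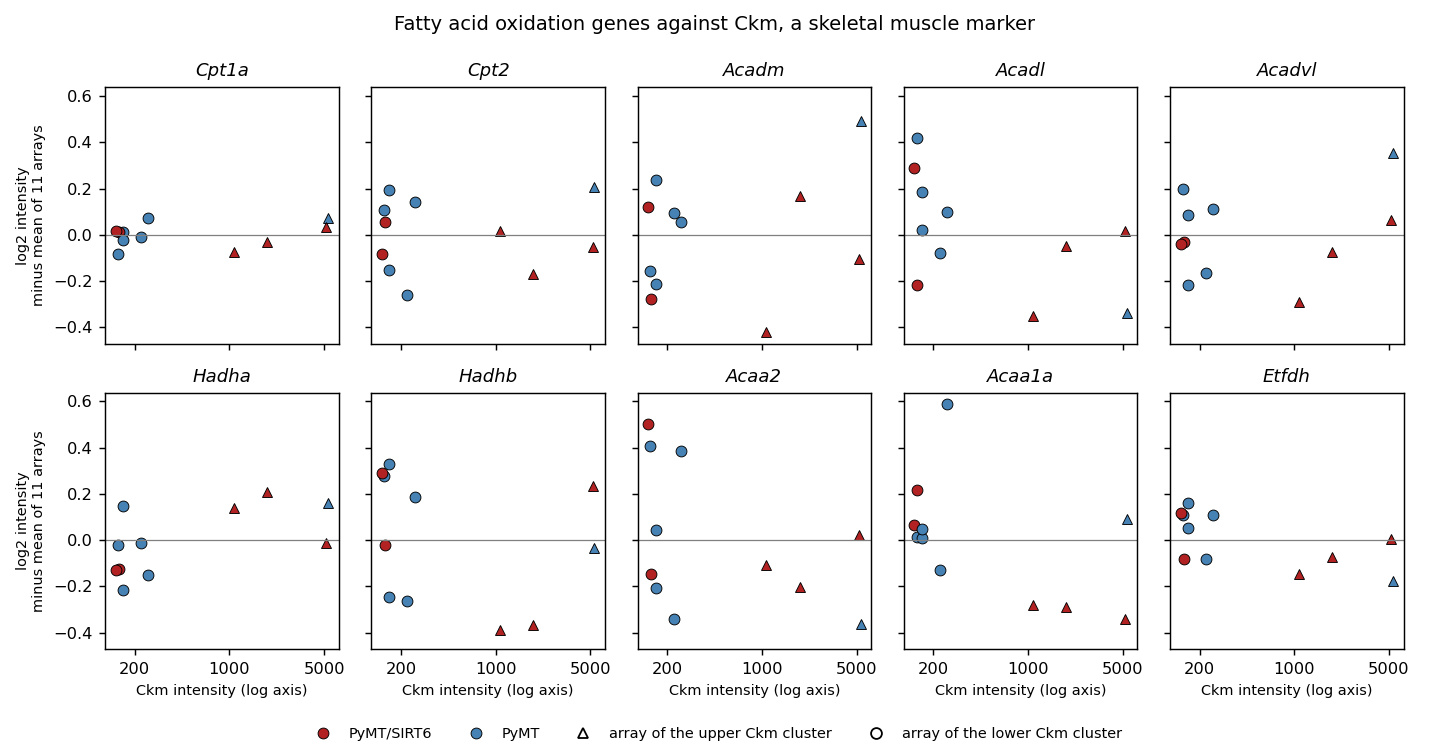
Log2 intensity of each of the 10 genes, centred on its mean over 11 tumours (y axis), against Ckm intensity (x axis, log scale), with PyMT/SIRT6 in red, PyMT in blue and triangles for the 4 tumours with high Ckm. In no panel are the 4 triangles all above or all below the 7 circles.

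The rest of the pathway was read from 6 lists, and 0 of their genes passed the adjusted threshold (lowest adjusted p = 0.983 by limma) or an unadjusted p of 0.05. Of all features 0.0136% passed the adjusted threshold, and 2.04% were higher and 2.39% lower at an unadjusted p under 0.05. Changes were positive for 46.9% of all features, with a median of -0.005. Of 8 tested genes of the carnitine shuttle and of fatty acid activation, 4 had positive and 4 negative changes, with a median of -0.01. Among them Acsl5, an acyl-CoA synthetase, changed by -0.10 ± 0.09 and the carnitine transporter Slc22a5 by 0.09 ± 0.08. Acsl3, another acyl-CoA synthetase, changed by 0.06 ± 0.09. Of 12 other mitochondrial enzymes and electron carriers, 5 were positive and 7 negative, with a median of -0.01. Etfa, the alpha chain of the electron transfer flavoprotein that feeds Etfdh, changed by -0.13 ± 0.10. Acads, the short-chain acyl-CoA dehydrogenase, changed by -0.14 ± 0.12, and Eci1, an enoyl-CoA isomerase needed for unsaturated chains, by 0.16 ± 0.13.

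Of 9 peroxisomal genes, 2 changes were positive and 7 negative, with a median of -0.03. Hsd17b4, the peroxisomal multifunctional enzyme, changed by -0.31 ± 0.19, the transporter Abcd3 by -0.20 ± 0.14 and the acyl-CoA oxidase Acox3 by -0.13 ± 0.06. The 2 tested ketone body enzymes, Oxct1 and Bdh1, changed by -0.18 ± 0.11 and -0.14 ± 0.13. Of 14 regulators 6 were positive and 8 negative, with a median of -0.05. The nuclear receptor Rxra changed by -0.09 ± 0.05, the adipogenic receptor Pparg by -0.15 ± 0.15 and the kinase Pdk4, which restrains glucose oxidation, by 0.30 ± 0.20. Of 9 genes of uptake, binding and lipolysis 3 were positive and 6 negative, with a median of -0.04. The monoacylglycerol lipase Mgll changed by -0.36 ± 0.18, the binding protein Fabp5 by -0.09 ± 0.08 and the muscle-type binding protein Fabp3 by 0.26 ± 0.26.

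The 10 member profiles were also averaged, each centred on its mean, to find genes with the most similar pattern over the 11 tumours. Among 11262 genes outside the lists, the closest were H2-T23 (r = 0.92), Naa25 (r = 0.91), Lsm14b (r = 0.90), Frat2 (r = 0.90) and Aars (r = 0.90). These are the top of a ranking over many genes with few tumours and are given as a description.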

How the data were processed

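Per the labels' protocols, RNA of frozen tumours was extracted with a Qiagen kit, amplified to biotinylated cRNA and read on Illumina arrays. The authors deposited probe intensities on a linear scale; the sources used here do not give their background treatment or normalization. Sorted deposited intensities agreed between arrays within 1.08% and had medians of 157.5 to 157.6, so no further scaling was applied, and since no background was subtracted visibly, fold changes of dim probes are compressed. The number of arrays limits the precision.

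Of 45281 probes 34885 had a single symbol in the platform annotation, 18 several and 10378 none, and 34807 matched RefSeq gene identifiers (GRCm38.p6). Intensities were put on the log2 scale. Per gene the probe with the highest mean was kept, unnamed probes were features too, and the lower 50% of 29453 features were left out, leaving 14726, of which 11368 had a symbol. Groups follow the genotype labels; replicate numbers follow deposit order. Labels name no batch.

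Genotypes were compared with limma 3.58.1 (R 4.3.3; lmFit and eBayes with trend), with Benjamini-Hochberg adjustment over all features and changes given as PyMT/SIRT6 minus PyMT. Correlations have two-sided permutation p-values (100000 resamples, SciPy 1.17.1; exact under 10 tumours). A marker was read as splitting the tumours where its largest gap exceeded 40% of its log2 range, and Ckm (40.3%) lay at that limit, while Adipoq had 20.3%. The code was tested on simulated data. The members, lists and tests were chosen with earlier results of these data known. Named genes were all members, Ckm, Adipoq, Sirt6, up to 3 genes per pathway list with the smallest p, and the 5 most similar genes outside the lists. A few cell type markers were named too. Pathway genes under the other observations were chosen after their relation to Ckm or Adipoq was seen. Alternatives changed the filter, probe choice, background, normalization, variance model, covariates and tumours included.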

Additional observations from a re-analysis of the deposited data

Results flagged for a closer look

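Within a genotype, the highest and lowest tumour of each member probe and of Ckm and Adipoq was compared with its nearest neighbour on the log2 scale. The gap was taken as a share of the log2 range of the group. Of 48 groups examined 2 exceeded the critical value (0.71 for 5 tumours, 0.625 for 6), where chance gives about 1 in 20. Acaa1a was high in PyMT replicate 2, at 6229.7 against 4423 in the next PyMT tumour, a gap of 0.689 of the log2 range. Without that tumour the change of Acaa1a between genotypes was -0.13, against -0.23 with it. Ckm was high in PyMT replicate 5, at 5350.0 against 252.9 in the next PyMT tumour, a gap of 0.855 of the log2 range.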

How the results depend on the processing

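The count of members past the threshold was 0 under every alternative run, also when any 1 tumour was left out; without the upper Ckm tumours 0 of all features passed either, so that setting says nothing about the members. Of 207 member changes under alternatives 194 kept their direction, 13 changed sign and 0 passed. Signs turned for 4 members: Hadha was -0.019 with log2 Ckm as covariate and -0.076 without the tumours in the upper Ckm cluster, where Hadhb was 0.077 and Acaa1a 0.036. Acaa2 was -0.0088 with the mean of all probes and -0.0039 with order of deposit as a block. Leaving out each tumour in turn gave -0.017 to 0.067 for Hadha and -0.095 to 0.111 for Acaa2; the sign turned without PyMT replicate 3 or PyMT/SIRT6 replicate 1 or 4 for Hadha, and without PyMT replicate 3, 5 or 6 or PyMT/SIRT6 replicate 3 for Acaa2. For Acaa1a the range was -0.315 without PyMT/SIRT6 replicate 2 (unadjusted p = 0.0441, adjusted p = 0.597) to -0.132 without PyMT replicate 2 (unadjusted p = 0.310). Over all features 2 passed, against 4 with the mean of probes, 4 with normexp, 1 with both markers as covariates, 1 with order of deposit as a block, 0 without the upper Ckm tumours, and 1 to 3 with a tumour left out (1 without PyMT replicate 1, 2, 3, 4 or 6 or PyMT/SIRT6 replicate 1 or 5); the cause was not tested, except that fewer tumours enter the last 2. The 1 called pair of members became 0 with the mean of all probes. The labels give no pairing of tumours between the genotypes, so no paired analysis was run. Signal over background limits Cpt1a and Hadha, whose probes were near the filter limit.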

Other observations

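Some pathway genes outside the 10 differed from the members in how they stood to the muscle marker. These genes were chosen after their values were seen. Cpt1b, the muscle isoform of the outer membrane transferase, read 180.2 to 275.6 in the 3 PyMT/SIRT6 tumours with high Ckm and 311.3 in the PyMT tumour with high Ckm, against at most 170.1 in the 7 tumours with low Ckm. Slc22a5, Pdk4 and Fabp3 were likewise higher in all 4 tumours with high Ckm than in the other 7. Slc22a5 read at least 400.6 in the 4 tumours and at most 382.9 in the 7. Pdk4 read at least 198.9 in the 4 and at most 170.1 in the 7, and Fabp3 at least 236.6 in the 4 and at most 218.3 in the 7. Such a stand was found for 1.08% of all features.

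Adipoq was followed by the lipase Lpl (r = 0.94, rho = 0.90, permutation p of r 5e-05, adjusted over all features 0.0736), by Pparg (r = 0.91, rho = 0.94, permutation p of r 8e-05, adjusted 0.0736) and by the matrix hydratase Echs1 (r = 0.86, rho = 0.88, permutation p of r 0.00079, adjusted 0.161). None of the 3 passed the threshold over all features, of which 0.0272% did. These 3 were also chosen after their values were seen, and 4.99% of all features had r above 0.6. The other pathway genes with r above 0.6 were Abcd2 (r = 0.85), Acacb (0.73), Sirt3 (0.71), Lpin1 (0.66), Eci1 (0.64), Slc22a5 (0.63) and Crat (0.61).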
